A study of Rattus norvegicus with 6 samples.

Results

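Opioid, cannabinoid, muscarinic, alpha-2 adrenergic and adenosine receptors that couple to inhibitory G proteins were examined for CpG methylation in the rat dorsal root ganglion (DRG). The set was chosen by name, with earlier results of these data known. It holds 10 genes: Oprm1, Oprd1, Oprk1, Oprl1, Cnr1, Cnr2, Chrm2, Adra2a, Adra2c and Adora1. Of these, 5 were the nearest annotated gene of at least 1 CpG in the authors' annotated table, with 13 of its 32674 nuclear sites. Oprm1 and Cnr1 had 4 sites each, Oprk1 had 3, and Oprd1 and Adra2c had 1 each. Oprl1, Cnr2, Chrm2, Adra2a and Adora1 had 0 and are not described further at this level. Within 2 kb of the 13 sites, 8 further CpGs had at least 10 reads in all 6 libraries, which gave 21 sites among 424646 of that depth.

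The libraries came from adult male Sprague-Dawley rats, 8 to 9 weeks old at surgery. In the SNL group (n = 3 libraries) the left L5 and L6 spinal nerves, which carry the axons of DRG neurons, had been ligated tightly as a model of neuropathic pain. In the Sham group (n = 3 libraries) surgery without ligation had been done on the contralateral side. By this description body side went with group, so side and ligation cannot be told apart here. All ganglia were taken 3 weeks after surgery. The labels number the libraries without saying whether they came from separate animals, or whether an SNL and a Sham library share a rat, so p-values reflect only how far these 6 libraries scatter, and that scatter may be technical. Reduced representation bisulfite sequencing (RRBS) reads short fragments cut at CCGG, and a methylation level is the percent of reads that kept a C at a CpG. Coverage summed over all listed CpG positions ran from 27247702 to 34293779 per library, and a read counts at each CpG that it covers.

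Most of these receptors can lower neuronal excitability. Bound by opioid peptides, endocannabinoids, acetylcholine, noradrenaline or adenosine, the receptors release inhibitory G proteins that reduce adenylyl cyclase activity. Most can also close voltage-gated calcium channels and open inwardly rectifying potassium channels. On sensory neurons many of them reduce transmitter release from the central terminal, and several are targets of analgesic drugs. A methylated CpG-rich promoter is commonly found at a silent gene, while distal and intronic CpGs of mammalian tissue are mostly methylated.

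The starts of Oprm1, Oprd1 and Adra2c differ in CpG content. Promoter sequences from RefSeq, assembly GRCr8, cover 250 bases before to 50 after a start, and 7 of the 10 genes had at least 1. Oprk1, Oprl1 and Cnr1 had none there. The sequences of Oprm1, which has 2 listed starts, and of Oprd1 and Adra2c are printed because the libraries hold reads at the annotated starts of these genes, whose levels are given after them. Capitals mark CpG dinucleotides.
Oprm1 upstream start, chr1:45565121-45565420, plus strand: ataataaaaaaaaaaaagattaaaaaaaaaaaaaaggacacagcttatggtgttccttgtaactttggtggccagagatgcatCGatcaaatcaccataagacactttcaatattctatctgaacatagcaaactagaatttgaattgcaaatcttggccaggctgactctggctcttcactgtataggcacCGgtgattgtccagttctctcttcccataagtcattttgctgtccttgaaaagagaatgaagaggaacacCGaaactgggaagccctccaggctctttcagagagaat
Oprm1 downstream start, chr1:45585733-45586032, plus strand: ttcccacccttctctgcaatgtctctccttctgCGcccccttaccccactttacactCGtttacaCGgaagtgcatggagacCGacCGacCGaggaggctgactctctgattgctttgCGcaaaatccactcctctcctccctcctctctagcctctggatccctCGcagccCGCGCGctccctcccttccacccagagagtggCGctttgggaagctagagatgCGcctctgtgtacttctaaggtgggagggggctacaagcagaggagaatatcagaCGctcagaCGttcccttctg
Oprd1, chr5:149624950-149625249, minus strand: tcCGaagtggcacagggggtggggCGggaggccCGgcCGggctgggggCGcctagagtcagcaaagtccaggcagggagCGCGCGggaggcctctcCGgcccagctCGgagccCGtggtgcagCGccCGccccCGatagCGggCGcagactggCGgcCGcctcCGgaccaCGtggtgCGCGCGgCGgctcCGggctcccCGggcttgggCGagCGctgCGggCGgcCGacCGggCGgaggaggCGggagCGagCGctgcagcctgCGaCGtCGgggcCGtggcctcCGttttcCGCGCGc
Adra2c, chr14:79697427-79697726, minus strand: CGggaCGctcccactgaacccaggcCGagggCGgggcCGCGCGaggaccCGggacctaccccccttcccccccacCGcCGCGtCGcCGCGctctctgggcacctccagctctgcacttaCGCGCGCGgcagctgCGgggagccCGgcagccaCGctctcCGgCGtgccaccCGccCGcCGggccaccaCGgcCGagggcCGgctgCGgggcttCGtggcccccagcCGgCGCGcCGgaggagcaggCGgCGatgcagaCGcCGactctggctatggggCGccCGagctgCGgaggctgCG

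The upstream Oprm1 sequence holds 3 CpGs and 1 CCGG, the site that RRBS fragments start from, and the downstream one holds 15 CpGs and 0 CCGG. Oprd1 and Adra2c hold 44 and 43 CpGs and 7 CCGG each. The median over the 33469 rat promoters of the table was 7 CpGs, and 51.4% held a CCGG, searched as these 4 letters, which read the same on both strands. Fewer CpGs than at the Oprd1 and Adra2c starts were found in 98.1% and 97.9% of promoters, and fewer than at the upstream Oprm1 start in 22.3%. The 2 Oprm1 starts lie 20.6 kb apart in GRCr8. Among genes with no annotated site, the Adra2a promoter held 25 CpGs and 4 CCGG.

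The annotated Oprm1 start, that of transcript NM_001304733, lay in methylated DNA in both groups. Oprm1 encodes the mu opioid receptor, the main target of morphine. The promoter flag of the authors' table, for sites close to a start, marked 2 of the 13 receptor sites, both at Oprm1, 298 and 279 bp upstream (chromosome 1, positions 37514500 and 37514519, rn4). At the first, methylation was 92.5%, 93.2% and 95.9% in the 3 SNL libraries and 92.8%, 93.7% and 92.3% in the 3 Sham libraries, and the groups overlapped. At the second it was 88.8%, 81.9% and 94.5% in SNL libraries and 94.2%, 90.2% and 94.1% in Sham libraries. The low SNL 2 value set the mean difference at this second site, which was -4.46 points ± 2.62 (SE) and -1.21 points without SNL 2. Each SE printed with a difference is that of the difference in pooled reads, which was -4.91 points here. Neither passed the test across all annotated sites (logistic regression with moderated overdispersion, adjusted p = 0.926 and 0.455, 139 to 256 reads per library). The 2 sites are close enough to be read in the same 50-base reads.

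Promoter sites at this level were uncommon among the annotated sites, though less so outside CpG islands and shores. Over the 2387 annotated sites with the promoter flag, the median Sham methylation was 2.78%, and 100 of them (4.19%) stood above 90%, as both Oprm1 sites did in Sham ganglia (92.9% at each). Outside CpG islands and shores, where both Oprm1 sites lie, 59 of 462 promoter sites (12.8%) stood above 90%. A further CpG at 57 to 58 bp upstream of the same start was covered by 8 to 22 reads per library at its deeper position. Its methylation was 91.7%, 87.5% and 83.3% in SNL libraries and 88.9%, 87.5% and 100.0% in Sham libraries. Its 2 listed positions, 1 per base of the CpG, fall within 2 bp of the CpG in the CCGG of the upstream Oprm1 sequence, counted from the start, and 0 fall that close to a CpG of the downstream one. This match of offsets was made without converting coordinates between builds and rests on 1 CpG. It would place the annotated start at the CpG-poor sequence printed first, but the placement was not checked in another way. Methylation of the CpG-richer downstream sequence was not analysed here.

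The CpGs read around the starts of Oprd1, Oprk1 and Adra2c were almost free of methylation in both groups. These genes encode the delta opioid receptor, the kappa opioid receptor and the alpha-2C adrenergic receptor. Reads at all CpGs within 500 bp of each annotated start were summed whatever their depth, a description added after the data were seen. At Oprd1, 90 listed positions gave 1.74% ± 1.05 in SNL libraries and 2.51% ± 0.28 in Sham libraries (SD, n = 3; 324 to 684 summed reads per library). At Adra2c, 87 positions gave 1.26% ± 0.6 in SNL libraries and 1.44% ± 0.97 in Sham libraries (SD, n = 3; 243 to 353 summed reads). These groups overlapped at both genes. At Oprk1, 19 positions held 1 methylated read of 100 in the SNL libraries together (95% Wilson interval 0.177% to 5.45%) and 0 of 51 in the Sham libraries together (95% Wilson interval up to 7%). Most single positions here had only a few reads per library. Because 1 read can count at several CpGs, these counts are not independent. The Wilson intervals treat them as independent, so they are too narrow, and they leave out the spread between libraries. The listed Oprk1 positions lay 15 to 228 bp downstream of the start, so its upstream side was not read. Within the same distance of the Oprm1 start the level was 91% ± 3.6 in SNL libraries and 92.9% ± 1.09 in Sham libraries (SD, n = 3), and Cnr1 had 0 positions.

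**Figure D1:**
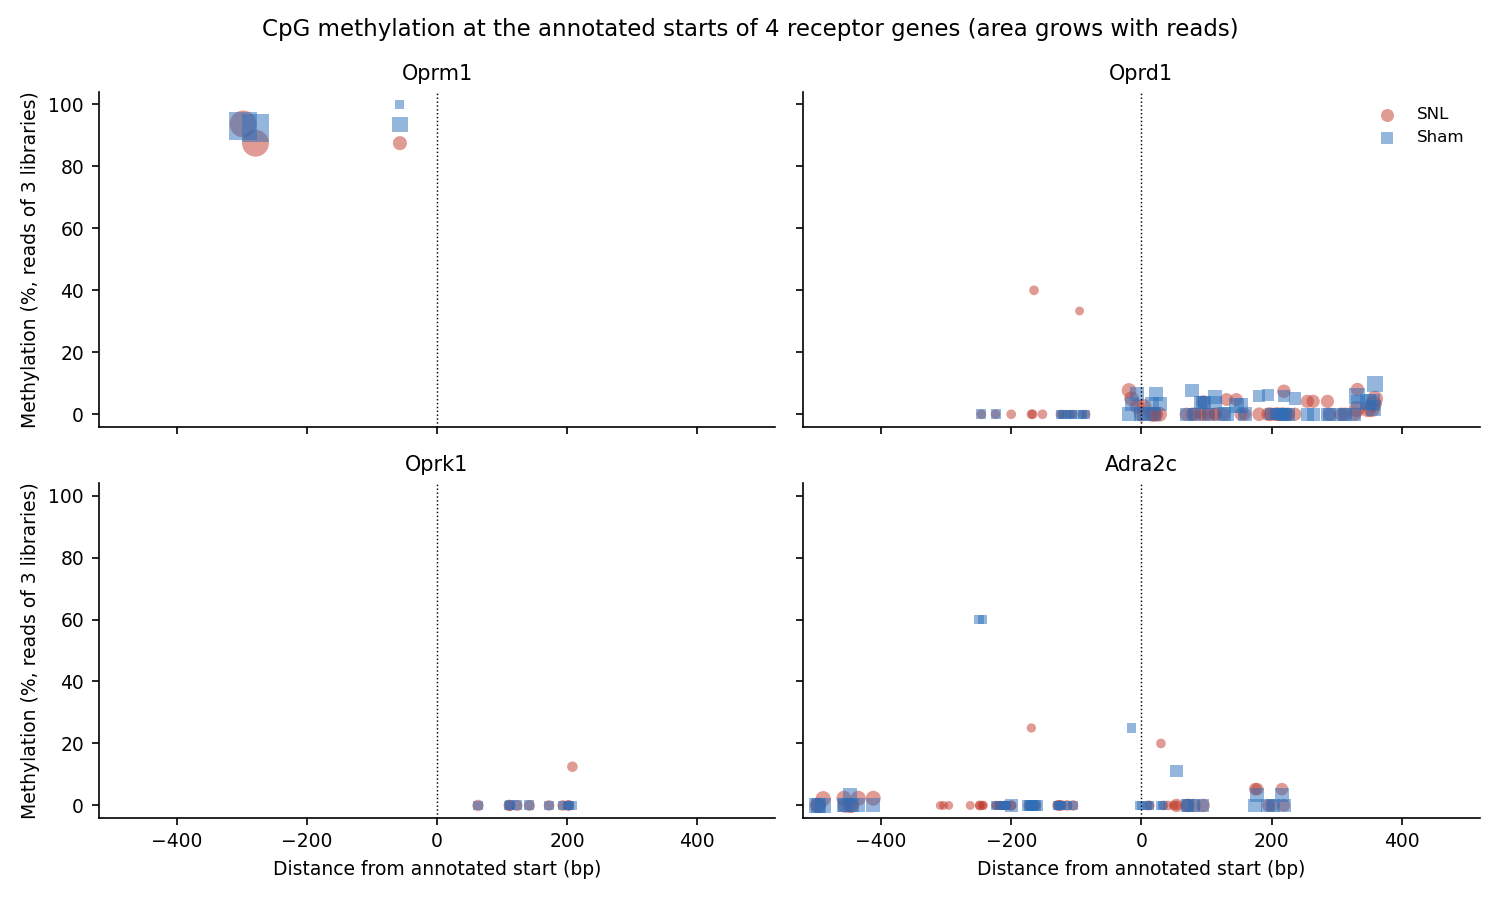
Methylation (%, reads of the 3 libraries of a group together) against the distance of each CpG from the annotated start (bp), for SNL (red circles) and Sham (blue squares), at positions with 3 or more reads and with symbols that grow with reads. Oprm1 CpGs sit near 90%, and those of Oprd1, Oprk1 and Adra2c sit near 0% apart from a few shallow positions.

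After SNL, none of the 13 annotated receptor sites differed from Sham at an adjusted p under 0.05, where 1.27% of all annotated sites did (1.12% lower and 0.153% higher after SNL). The unadjusted p was under 0.05 at 0 of the 13, against 13% of all annotated sites. The difference was below 0 at 8 of the 13 (61.5%), against 61.3% of all, and the median was -0.83 points for the receptor sites and -0.55 points for all. The groups did not overlap at 2 of the 13 sites, both lower after SNL, against 17.8% of all annotated sites (13.2% with SNL all lower and 4.64% with SNL all higher). In direction and overlap the receptor sites were close to the table as a whole. The authors' deposited table gives q-values from 0.17 to 0.871 for the same 13 sites. Because bulk ganglia were read, a change in the mix of cells and a change within cells cannot be told apart.

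**Figure D2:**
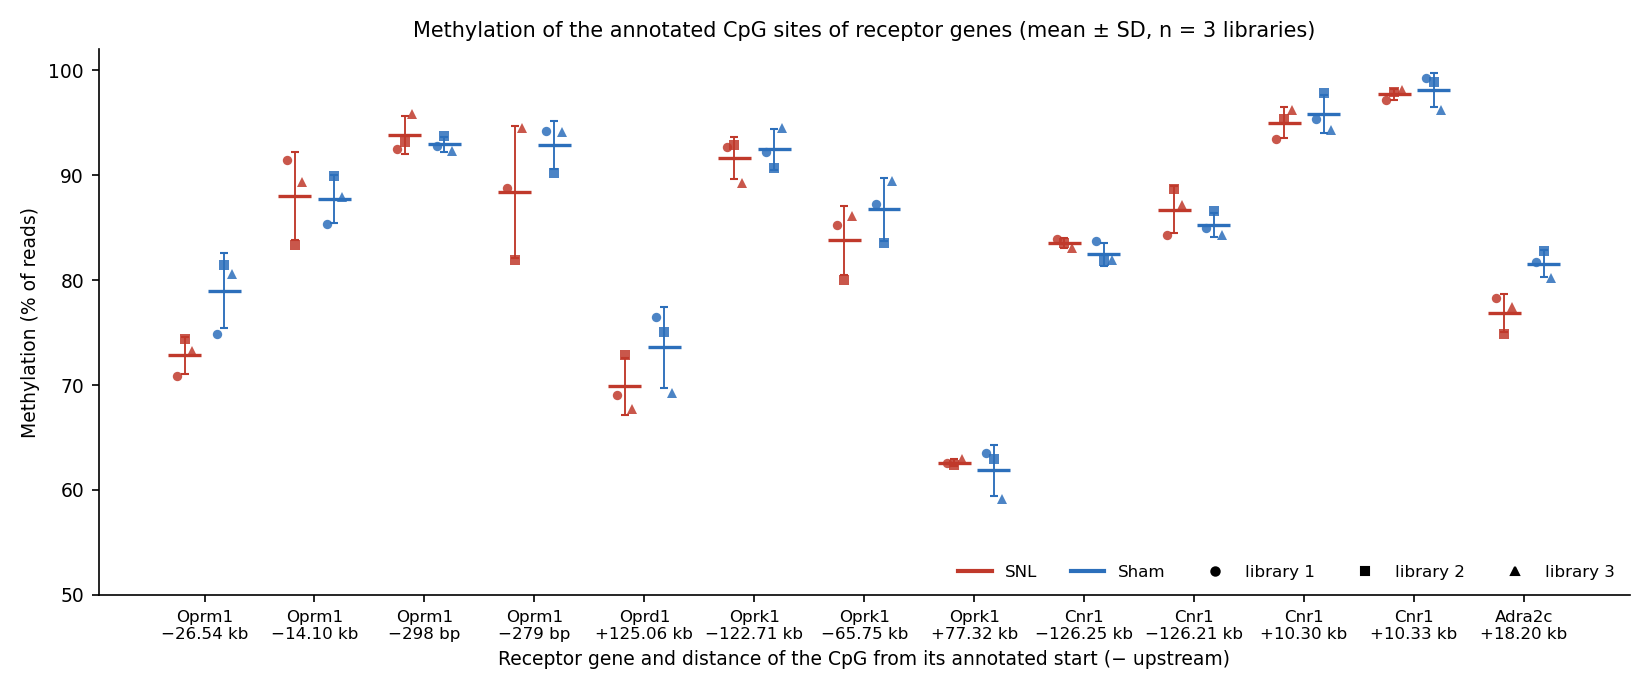
Methylation (percent of reads) of the 13 annotated sites by library, with the gene and the distance from its annotated start on the x axis, and with horizontal bars and error bars for the mean ± SD of SNL (red, n = 3) and Sham (blue, n = 3). The y axis starts at 50%, and the groups separate only at the Oprm1 site 26.5 kb upstream and at the Adra2c site.

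Among the 13 annotated sites, in their own fit, the lowest p belonged to an Oprm1 site 26.5 kb upstream of the annotated start (chromosome 1, position 37488254, rn4), which carried no promoter, exon, intron, island or shore flag. It stood at 70.9%, 74.3% and 73.2% in SNL libraries and at 74.9%, 81.5% and 80.6% in Sham libraries. All 3 SNL values were below all 3 Sham values, with the highest SNL library close to the lowest Sham library. The difference was -6.16 points ± 2.78 (SE, adjusted p = 0.392, unadjusted p = 0.0532, 162 to 237 reads). A second CpG 161 bp away, at position 37488093 with 26 to 45 reads, was 77.8%, 81.6% and 82.9% in SNL libraries and 89.3%, 96.9% and 92.3% in Sham libraries. Here too the groups did not overlap, with a difference of -12.1 points ± 4.57 (SE). In the test over all 424646 sites it did not pass (adjusted p = 0.919, unadjusted p = 0.0457). The remaining Oprm1 site, 14.1 kb upstream at position 37500703, stood at 88% ± 4.19 in SNL libraries and 87.7% ± 2.29 in Sham libraries (SD, n = 3; adjusted p = 0.965).

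The delta and kappa receptor genes were read only far from their starts at this depth. The Oprd1 site lay 125.1 kb downstream of the start (chromosome 5, position 150889009), with no flag. Its methylation was 69%, 72.9% and 67.7% in SNL libraries and 76.5%, 75.1% and 69.2% in Sham libraries, and the groups overlapped (-3.73 points ± 2.52 SE, adjusted p = 0.668). The difference was -2.27 points without Sham 1 and -5.91 points without Sham 3. It was -3.15 points in pooled reads, and -2.16 points in the model with library offsets, which remove a shift common to all sites. Oprk1 had sites 122.7 and 65.7 kb upstream and 77.3 kb downstream of its start on chromosome 5 (positions 14178170, 14121205 and 13978142), none with a flag. The deepest of all receptor sites was the one 65.7 kb upstream, with 409 to 698 reads. It stood at 85.2%, 80.1% and 86.1% in SNL libraries and 87.3%, 83.5% and 89.4% in Sham libraries, with overlap and a difference of -2.96 points ± 1.85 (SE, adjusted p = 0.556). It was -1.09 points without SNL 2, -1.61 points without Sham 3 and -4.57 points without Sham 2. The site 77.3 kb downstream was the least methylated of the 13, at 62.6% ± 0.3 in SNL libraries and 61.9% ± 2.4 in Sham libraries (SD, n = 3), and the site 122.7 kb upstream was at 91.6% ± 2.03 in SNL libraries and 92.5% ± 1.94 in Sham libraries. These had adjusted p = 0.954 and 0.931. A CpG 219 bp from the downstream site stood at 89.3% ± 1.69 in SNL libraries and 85% ± 4.98 in Sham libraries (SD, n = 3; adjusted p = 0.919).

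Cnr1 encodes the CB1 cannabinoid receptor, found on axon terminals. An intronic pair 10.3 kb downstream of the start (chromosome 5, positions 50437470 and 50437501) was near full methylation. The first was 93.4%, 95.4% and 96.2% in SNL libraries and 95.4%, 97.8% and 94.3% in Sham libraries, and the second ran from 97.1% to 98.1% in SNL libraries and from 96.2% to 99.2% in Sham libraries. In the same intron, CpGs 78 and 114 bp from the second, with 25 to 38 reads, were lower, at 66.5% ± 2.91 and 79.4% ± 2.8 in SNL libraries and 60.6% ± 8.52 and 82.8% ± 2.97 in Sham libraries (SD, n = 3). A pair 126.2 kb upstream (positions 50300926 and 50300963) stood at 83.5% ± 0.43 and 86.7% ± 2.21 in SNL libraries and 82.5% ± 1.08 and 85.3% ± 1.17 in Sham libraries. The groups overlapped at all 4 annotated Cnr1 sites, with adjusted p from 0.808 to 0.895 and 95% intervals of the difference that stayed within -3.62 and 5.15 points. Near the upstream pair, a CpG 524 bp away was higher in all 3 SNL libraries (91.3%, 87.8% and 88.2%) than in the 3 Sham libraries (83.9%, 87.7% and 79.4%), at 23 to 65 reads. The gap between the groups there was small and the site did not pass (adjusted p = 0.934). Another, 154 bp away, was at 96.2% ± 3.85 in SNL libraries and 94.8% ± 9.02 in Sham libraries (SD, n = 3).

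Adra2c had the second annotated site at which the groups did not overlap. It lay 18.2 kb downstream of the start, with no flag (chromosome 14, position 81091415). Methylation was 78.3%, 74.9% and 77.4% in SNL libraries and 81.7%, 82.7% and 80.2% in Sham libraries. The difference was -4.71 points ± 2.53 (SE, adjusted p = 0.455, 162 to 211 reads), and its 95% interval on pooled reads ran from -10.1 to 0.57 points. CpGs 161 and 152 bp away were much less methylated. The first stood at 20.6% ± 9.53 in SNL libraries and 13.4% ± 4.56 in Sham libraries, and the second at 51.7% ± 4.81 in SNL libraries and 54.9% ± 20.4 in Sham libraries (SD, n = 3). With 14 to 25 reads per library these could not show a difference of a few points (adjusted p = 0.919 and 1). Within 161 bp the Sham level thus ran from 13.4% to 81.6%, the widest range among the stretches read around the receptor sites.

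Over the 21 sites, none passed at an adjusted p under 0.05 when fitted with all 424646 sites of 10 or more reads, and of these 0% passed in that fit. With the prior of the spread taken only from sites with both kinds of read, a choice added after the counts of calls were seen, 1693 of all sites and 0 of the 21 passed, and limma called 0 of all. The difference was below 0 at 11 of the 21, against 53.7% of all such sites. The unadjusted p was under 0.05 at 1 of them, the shallow Oprm1 CpG at position 37488093, against 2.94% of all sites (12464 sites). The groups did not overlap at 4 of the 21, 3 lower and 1 higher after SNL, against 10.2% of all sites of 10 or more reads (6.62% with SNL all lower and 3.59% with SNL all higher). The 4 include the 2 annotated sites already named. The shares in this comparison are not of like depth, since the 21 sites had a median of 154.5 reads and all sites a median of 28. At the deeper annotated sites 17.8% did not overlap.

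**Figure D3:**
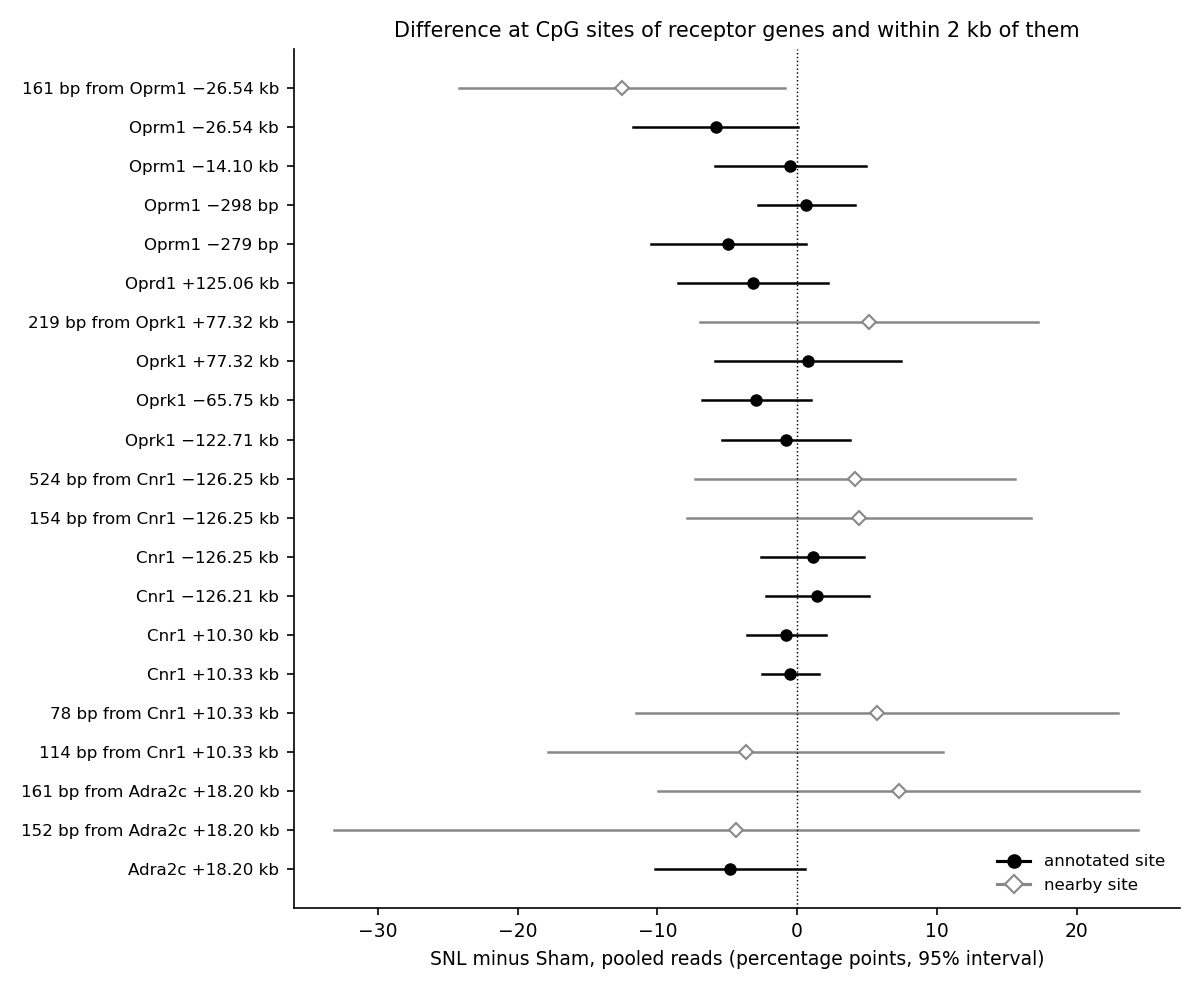
Difference in methylation, SNL minus Sham, in percentage points of pooled reads with its 95% interval, for the 13 annotated sites (filled circles, from the fit of annotated sites) and the 8 nearby sites (open diamonds, from the fit of all sites with 10 or more reads). Intervals of nearby sites are wide, and the shallow Oprm1 CpG 161 bp from the site 26.5 kb upstream is the only one whose interval lies wholly on one side of 0.

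When reads were added up per gene, 0 of the 5 receptor genes passed, against 0.536% of all 8016 genes (0.511% lower and 0.025% higher after SNL), and 0 had an unadjusted p under 0.05, against 13.7% of all. Oprm1 gave 84%, 83.1% and 87.1% in SNL libraries and 85.4%, 89.6% and 88.7% in Sham libraries. The groups overlapped through SNL 3, and the difference was -3.17 points ± 1.6 (SE, adjusted p = 0.382). Oprk1 stood at 80.7% ± 1.82 in SNL libraries and 82.3% ± 2.11 in Sham libraries (adjusted p = 0.748), and Cnr1 at 89.7% ± 0.88 in SNL libraries and 89% ± 1.19 in Sham libraries (SD, n = 3; adjusted p = 0.85). Oprd1 and Adra2c had 1 site each, so their sums add nothing. The difference was below 0 in 4 of the 5 genes, against 66.9% of all genes, and the groups did not overlap in Adra2c alone, where 15.8% of all genes had SNL all lower and 3.69% had SNL all higher. The 95% intervals of the pooled difference were wide for genes with 1 site, at -10.7 to 1.1 points for Adra2c and -9.59 to 3.3 points for Oprd1. They were -7.2 to 0.1 points for Oprm1, -5.17 to 2.12 points for Oprk1 and -1.61 to 2.82 points for Cnr1.

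The genes that supply, transmit and limit receptor signals were measured in the same sums, in lists chosen by function. A sum pools the annotated CpGs whose nearest start is that of the gene, at any distance. The median distance over all annotated sites was 45 kb, with a median of 3 sites per gene. Such a sum is therefore not the methylation level of a whole gene or of its promoter. Earlier results of these data were known when the lists were chosen, so counts within a list are not an independent test. None of the 63 measured genes of these lists passed, where 0.536% of all genes did. Of 8 genes for opioid peptides and their processing, 7 had a difference below 0, with a median of -1.22 points. Pnoc, the precursor of the Oprl1 ligand nociceptin, had the lowest p, at 65.2%, 65.9% and 60.8% in SNL libraries and 68%, 72.5% and 71.4% in Sham libraries (-6.69 points ± 1.9 SE, adjusted p = 0.181). Penk, the precursor of enkephalins, stood at 88.3% ± 1.06 in SNL libraries and 91.2% ± 0.73 in Sham libraries (SD, n = 3; adjusted p = 0.4). Cpe, a peptide-processing carboxypeptidase, differed by -1.84 points (adjusted p = 0.417).

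Of the 17 measured genes of inhibitory G protein signalling, 14 had a difference below 0, with a median of -2.68 points, while 66.9% of all genes were below 0 with a median of -0.79 points. With library offsets 12 of the 17 were below 0, with a median of -1.95 points against -0.31 points for all genes. The groups did not overlap at 8 of the 17, all lower after SNL, where 19.5% of all genes did not overlap and 15.8% had SNL all lower. The lowest p values were those of the adenylyl cyclase genes Adcy8, Adcy5 and Adcy2, summed over 3, 5 and 3 sites. Adcy8 was 55.1%, 49% and 46% in SNL libraries and 56.5%, 61.9% and 60.6% in Sham libraries, with all SNL values below all Sham values (-9.64 points ± 2.61 SE, adjusted p = 0.176). Adcy5 was 67.6%, 60.9% and 68.4% in SNL libraries and 71.9%, 72.1% and 74.5% in Sham libraries (-7.23 points ± 2.18 SE, adjusted p = 0.191). Adcy2 differed by -3.24 points (adjusted p = 0.221). An unadjusted p under 0.05 was found for 7 of the 17, some with only 1 site, against 13.7% of all genes. In each other pathway list it was found for 1 or 2 genes, and the groups did not overlap at 1 or 2 genes.

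Of 11 measured genes that desensitise receptors, 5 had a difference below 0, with a median of 0.72 points. Rgs16, which speeds the shut-off of inhibitory G proteins, was the only one with called single sites. They lay 3.5 kb upstream of its start on chromosome 13 (positions 68804327 and 68804333), close enough to share reads. Among the 307 sites of all pathway lists only these 2 were called, where 1.27% of all annotated sites were. Methylation at the first was 31.1% ± 1.4 in SNL libraries and 43.9% ± 3.22 in Sham libraries, and at the second 35% ± 1.63 in SNL libraries and 48.9% ± 1.84 in Sham libraries (SD, n = 3; adjusted p = 0.0494 and 0.0258). When each library was omitted in turn, the first stayed called in 0 of 6 fits and the second in 1, that without SNL 1 (adjusted p = 0.0324). With library offsets the first did not pass and the second did (adjusted p = 0.0578 and 0.0313). Summed over its 4 sites Rgs16 did not pass (adjusted p = 0.0845). Rgs3 and Grk2 differed by 3.46 and -1.9 points (adjusted p = 0.308 and 0.495).

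In the remaining lists no site was called. Of 7 genes of endocannabinoid, adenosine and transmitter enzymes, 4 had a difference below 0 (median -0.44 points). Entpd1, an ectonucleotidase upstream of adenosine, was at 80.9% ± 0.55 in SNL libraries and 78.6% ± 0.92 in Sham libraries (SD, n = 3; adjusted p = 0.236), and Mgll and Dbh had adjusted p = 0.536 and 0.6. Of 12 other inhibitory receptors, 9 were below 0 (median -1.47 points). The somatostatin receptor gene Sstr1 was at 41.6% ± 1.65 in SNL libraries and 46.4% ± 1.71 in Sham libraries (adjusted p = 0.316), and Gabbr1 and Chrm4 had adjusted p = 0.447 and 0.564. Of 8 genes of chromatin and DNA methylation repressors, 3 were below 0 (median 0.81 points). Mbd2, which binds methylated DNA, was at 46.7% ± 1.35 in SNL libraries and 50.2% ± 0.5 in Sham libraries (adjusted p = 0.101), and passed only without SNL 1 (adjusted p = 0.0264). Hdac4 and Dnmt3a had adjusted p = 0.457 and 0.618.

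**Figure D4:**
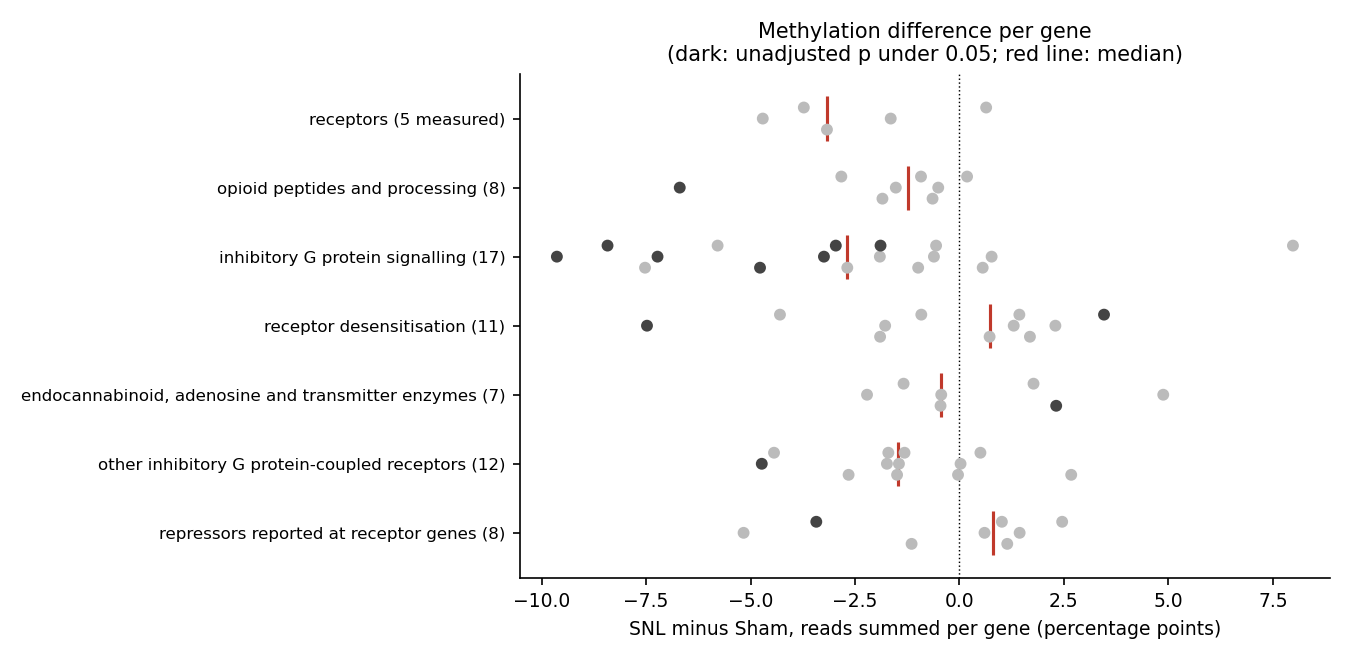
Difference in methylation per gene, SNL minus Sham, in percentage points of reads summed over the annotated sites of a gene, for the 5 receptor genes and 6 lists of signalling genes (number measured in brackets). Dark points have an unadjusted p under 0.05, and red lines mark medians, which is -2.68 points for inhibitory G protein signalling. No gene shown passed after adjustment over all genes, where 0.536% of all genes did.

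Marker genes of the cell types of a ganglion were measured as well, although methylation does not measure their expression and so does not check the tissue label. Of 30 markers, 16 had annotated sites, and 0 genes passed, against 0.536% of all genes. An unadjusted p under 0.05 was found for 2 of the 16, against 13.7% of all. A site 46.5 kb upstream of Egr2, a transcription factor of myelinating Schwann cells, was the only called site of the markers, where 1.27% of all annotated sites were called. It stood at 35.9% ± 2.92 in SNL libraries and 48.7% ± 1.88 in Sham libraries (SD, n = 3; adjusted p = 0.0358). The call stayed in 1 of 6 fits when each library was omitted in turn, that without SNL 1 (adjusted p = 0.027). With library offsets the site passed (adjusted p = 0.0435). Summed over its 2 sites, Egr2 had the lowest p of the 16 markers and did not pass (-10.8 points ± 2.26 SE, adjusted p = 0.109). Differences went both ways within the lists. Of 4 neuronal markers 3 were below 0 (median -1.1 points), of 4 glial markers 3 (median -0.68 points), of 3 macrophage and leukocyte markers 1 (median 0.22 points) and of 5 fibroblast and vessel markers 3 (median -0.43 points). The lowest p of each other list is given next. The neuronal marker Nefh was at 87.7% ± 2.35 in SNL libraries and 91.3% ± 1.01 in Sham libraries (adjusted p = 0.195), while Isl1 differed by 1.61 points (adjusted p = 0.831) and the glial marker Kcnj10 by 4.53 points (adjusted p = 0.536). The macrophage marker Itgam was at 79.1% ± 0.71 in SNL libraries and 81.2% ± 0.51 in Sham libraries (adjusted p = 0.536), while Ptprc and Csf1r differed by 0.22 and 0.26 points. The fibroblast and vessel marker with the lowest p was Dcn (adjusted p = 0.837). The part of cell mix in the receptor values was not tested.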

How the data were processed

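The submitters' processing notes list Bismark 0.18.1, Bowtie2, methylKit 1.3.3 and the rat build rn4. The protocol text in the labels names a human assembly. Coordinates are rn4 as deposited, except those of RefSeq promoters (GRCr8). The per-library files deposited by the authors hold a read count (coverage) and the percent of C and T at each CpG. The annotated table deposited by the authors holds percent methylation, the authors' p-value and q-value, a difference in percentage points (a signed score), annotation flags and the nearest transcript, for sites with 100 reads or more.

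Methylated counts were recovered as coverage times percent. Transcripts were matched to symbols by accession (7627 of 8123). Each site or gene sum was fitted by logistic regression on group. Overdispersion was moderated with limma's squeezeVar over all features and kept at 1 or above. A prior taken only from features with both kinds of read in at least 1 group was added as an alternative after the counts of calls were seen. Two-sided p-values of an F test received a Benjamini-Hochberg correction across all features (threshold 0.05). Differences are means of library percents, SNL minus Sham, and the SE printed beside them is that of the difference in pooled percents. With library offsets or the replicate block, differences come from the fitted model. Intervals are 95% Wald intervals of the difference in pooled percents with the same overdispersion. The fit was tested on simulated data, with changes larger than those at the annotated receptor sites and placed only at sites of intermediate methylation. That test does not show how small a difference could be found at the receptor sites. Sums over close sites include some reads repeatedly. Mitochondrial sites were left out. Libraries of a group differed by more than sampling noise at sites between the extremes (mean chi-square per site 1.69 to 3.11), so none was a repeat deposit. This does not show that libraries came from separate animals.

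All 10 receptor genes, each gene's site nearest the start and site with the lowest p, all called sites, and up to 3 genes of the lowest p per list were named. Other sites of the receptor genes were named after their values were seen. The members and lists were chosen with earlier results of these data known. Software was R 4.3.3, limma 3.58.1, Python 3.11.15, numpy 2.4.6, pandas 2.3.3, scipy 1.17.1 and matplotlib 3.10.9. Alternatives were the omission of each library, a replicate block, library offsets, no moderation, limma on logit values (pseudocount 1), other coverage minimums (200 and 20 reads), a window of 500 bp, sites within 10 kb of the start, joined neighbouring positions and unweighted means.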

Additional observations from a re-analysis of the deposited data

How the results depend on the processing

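The counts of called annotated receptor sites, nearby receptor sites and receptor genes were 0 under each alternative run, including the authors' q-values for the annotated sites. Coverage of 200 reads left 4 of the 13 annotated sites, coverage of 20 reads left 18 of the 21 sites and a window of 500 bp left 20, and only Oprm1 had sites within 10 kb of its start, where its difference was -1.79 points. Among the pathway genes the count of calls was 0 to 1 without 1 library in turn, the 1 being Mbd2 without SNL 1. Calls over all features moved with the setting. Over all annotated sites 415 were called in the fit described, 464 with the prior from features with both kinds of read (added after the counts were seen), 110 to 436 without 1 library, 374 with library offsets, 158 with the replicate block, 226 at 200 reads, and 0 both without moderation and with limma (1968 and 3480 at an unadjusted p under 0.05). Over all sites of 10 or more reads the count was 1693 with that added prior, 1 at 20 reads and 0 in the fit described and under the other alternatives (12464 at an unadjusted p under 0.05 in the fit described, 7226 without moderation and 26436 with limma). Over gene sums 43 were called in the fit described and with the added prior, 3 to 74 without 1 library, 55 with offsets, 10 with the block, 0 without moderation and 6 with limma.

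Library numbers were not treated as pairs. The deviations of same-numbered SNL and Sham libraries correlated at -0.0027, 0.148 and -0.0671, and 1 of 3 SNL libraries correlated best with its own number. With the replicate block the Rgs16 sites and the Egr2 site did not pass (adjusted p = 0.0976, 0.0794 and 0.089), and no receptor value passed. The Oprm1 site 14.1 kb upstream stood at -0.64 points with the block. Without the block its difference was 0.3 points in means of library percents and already -0.49 points in pooled reads.

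Signs of small differences depended on single libraries. Without 1 library in turn, the difference ran from -0.01 to 1.17 points for the Cnr1 sum, -1.39 to 2.64 for the Oprm1 site 14.1 kb upstream, -0.11 to 1.57 for the one 298 bp upstream, -0.63 to 1.56 and -1.74 to 0.33 for the Oprk1 sites 77.3 kb downstream and 122.7 kb upstream, -1.6 to 0.16 and -1.37 to 0.14 for the intronic Cnr1 pair, -3.75 to 4.06 for the Cnr1 CpG at 154 bp and -10.1 to 8.53 for the Adra2c CpG at 152 bp. The other receptor values kept their sign without each library, among them the Oprm1 site 26.5 kb upstream (-8.2 to -4.91), its neighbour (-13.9 to -10.1) and the Adra2c site 18.2 kb downstream (-5.43 to -3.72). Library offsets changed no sign, nor did unweighted means over the sites of a gene, which equal the sum for genes with 1 site. The added prior and no moderation do not enter the difference, so its sign could not change with them.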
